A study of Mus musculus with 58 samples.

Results

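Protocadherins are cell adhesion molecules of the cadherin superfamily, and the 33 studied here were the genes with a symbol beginning in Pcdh and a mean normalized count of at least 10 in both regions sampled, which were the entorhinal cortex (EC) and primary visual cortex (PVC). They were 33 of the 35 protocadherin genes listed and 33 of 31246 genes in all, of which 15642 reached the same minimum in both regions. Clustered members, from the *Pcdha*, *Pcdhb* and *Pcdhg* gene clusters, numbered 22, and non-clustered members numbered 11. RNA-sequencing had been performed on 58 libraries from male C57Bl/6 *APOE* targeted replacement mice aged 14 to 15 months. In each region 10 libraries came from *APOE3/3* and 19 from *APOE3/4* mice, and the labels give the same 29 animal numbers for the EC as for the PVC. All of these mice carry human *APOE* in place of mouse *Apoe*, driven by the mouse promoter, so that no group carried the mouse gene. For each gene and region a single value was used, which is the authors' mean normalized count over all 29 libraries of the region, with both genotypes pooled. It has no standard deviation and no values of single mice, so every difference below is a description with no test, and whether it exceeds the spread between mice could not be examined.

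Protocadherins bind copies of themselves on neighbouring cells. The clustered genes lie in tandem on a single chromosome. In *Pcdha* and *Pcdhg*, a variable first exon, each with its own promoter, is spliced to shared constant exons, whereas each *Pcdhb* gene is a single exon with no constant part. A neuron expresses a combination of isoforms chosen through promoter use, which serves self-recognition and self-avoidance of its branches. The non-clustered genes lie singly across the genome and are grouped by their cytoplasmic tails, as the delta-1 group (*Pcdh1*, *Pcdh7*, *Pcdh9*, *Pcdh11x*) and the delta-2 group (*Pcdh8*, *Pcdh10*, *Pcdh17*, *Pcdh18*, *Pcdh19*). They are known for patterned expression across brain areas and cortical layers and for roles in axon growth and synapse formation.

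The promoters of 3 delta-2 genes are shown because these genes lay at opposite ends of their group between the regions. *Pcdh19* and *Pcdh8* had the highest EC to PVC ratios of all members and *Pcdh10* had the lowest of the delta-2 group. Each stretch is the 250 bases before the RefSeq transcription start in the GRCm38.p6 build, read 5′ to 3′ on the gene's strand. Capitals mark the letters CGCT on either strand, AGCG being their reverse complement. These letters form the core of an element known from the promoters of clustered protocadherins. *Pcdh19* lies at chrX:133688994-133689243 on the minus strand, *Pcdh8* at chr14:79771313-79771562 on the minus strand and *Pcdh10* at chr3:45378148-45378397 on the plus strand.
Pcdh19: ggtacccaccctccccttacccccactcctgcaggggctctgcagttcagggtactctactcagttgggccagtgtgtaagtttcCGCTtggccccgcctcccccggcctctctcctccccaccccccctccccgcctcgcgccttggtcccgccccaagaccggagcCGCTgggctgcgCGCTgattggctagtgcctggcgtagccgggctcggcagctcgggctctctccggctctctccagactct
Pcdh8: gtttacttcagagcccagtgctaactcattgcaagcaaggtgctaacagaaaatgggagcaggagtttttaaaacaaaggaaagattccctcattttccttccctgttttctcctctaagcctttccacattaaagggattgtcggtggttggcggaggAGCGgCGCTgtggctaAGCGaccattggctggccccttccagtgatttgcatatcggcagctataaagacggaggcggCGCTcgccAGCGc
Pcdh10: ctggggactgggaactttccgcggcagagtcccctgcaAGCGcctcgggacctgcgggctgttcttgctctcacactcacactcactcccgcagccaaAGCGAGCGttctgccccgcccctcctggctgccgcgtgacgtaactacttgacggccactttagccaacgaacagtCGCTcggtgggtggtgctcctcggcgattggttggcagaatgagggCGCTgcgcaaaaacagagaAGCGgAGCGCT
The letters occurred 3 times in the stretch of *Pcdh19*, 5 times in that of *Pcdh8* and 8 times in that of *Pcdh10*, with overlapping matches counted. In the other delta-2 genes they occurred 2 times (*Pcdh17*) and 7 times (*Pcdh18*). With 5 genes, no relation of this number to the regional ratio was read. Promoters of 9 member genes were matched in the RefSeq table, all of them non-clustered, with 10 promoters because *Pcdh9* has 2. The 2 promoters of *Pcdh9* overlap almost fully, so nearly the same sequence is counted 2 times. Over the full 300 bases, which run to 50 bases past the start, all 10 held CGCT on either strand at least once, with up to 8 matches. Of all 32851 promoters of that length, 61.8% held it. CGCT itself contains a CpG dinucleotide, and this share was taken over promoters of any CpG content. Beyond the letters, 9 of the 10 had a ratio of observed to expected CpG dinucleotides above the median of all promoters, which was 0.384. The lowest was *Pcdh20* at 0.281 and the highest was *Pcdh10* at 0.824. GC content ranged from 43.7% in *Pcdh20* to 67.7% in *Pcdh19*, with a median of 52.7% over all promoters. A match of 4 letters is a description of the sequence and not a binding site.

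The symbol alone decided the split into classes, and the minimum alone decided membership. The 2 genes it left out were *Pcdh12*, known from vascular endothelium, with a mean normalized count of 15.1 in the EC against 4.51 in the PVC, and *Pcdhb1*, the first gene of its cluster, with 19.9 and 3.47. The member with the lowest mean in the PVC, *Pcdhb4*, had 87.4, so no gene lay close to the limit. Only 1 *Pcdha* gene (*Pcdha1*) and 1 *Pcdhg* gene (*Pcdhga11*) were listed, beside 21 *Pcdhb* genes, and neither symbol matched the NCBIM37 annotation used here. That annotation holds 2 gene models of the *Pcdha* cluster and 1 of the *Pcdhg* cluster. Transcript starts were counted for *Pcdha11* and *Pcdhgc5*, with 10 in each, so a gene count there may join reads of several first exons. The values of *Pcdha1* and *Pcdhga11* were therefore taken as those of the named entries, with no length, and no variable isoform could be told from another. The C-type isoforms *Pcdhac1*, *Pcdhac2*, *Pcdhgc3*, *Pcdhgc4* and *Pcdhgc5* were not listed under these symbols. Whether their reads were counted in *Pcdha1* or *Pcdhga11* could not be told.

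The summed level of the members was dominated by a few entries. *Pcdhga11* had a mean normalized count of 35029.9 in the EC against 18490.1 in the PVC, which was 31.7% and 33.1% of the summed level of all members. *Pcdh1*, a delta-1 protocadherin also known from epithelia, followed with 18137 in the EC and 8209 in the PVC, or 16.4% and 14.7%. *Pcdha1* had 10249 and 5650.1, or 9.27% and 10.1%. The 20 *Pcdhb* members together had 9039 in the EC and 4613 in the PVC, or 8.18% and 8.25% of the sum. Clustered members thus made up 49.1% of the summed level in the EC, against 51.4% in the PVC. The members together took 2238 per 1000000 normalized counts of the table in the EC, and 2066 per 1000000 in the PVC.

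The tables of the regions were normalized separately, so raw means cannot be set against each other. The gene at the median of the 15642 genes had a raw EC mean 1.86 times its PVC mean, and the regional ratio of each member is given on a scale on which this gene is at a log2 value of 0. A gene was counted as higher in a region when its ratio passed 1.5-fold, a log2 value of 0.58. The plot of EC against PVC means shows the members along the line of the median gene, with 28 of 33 inside that fold.

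**Figure D1:**
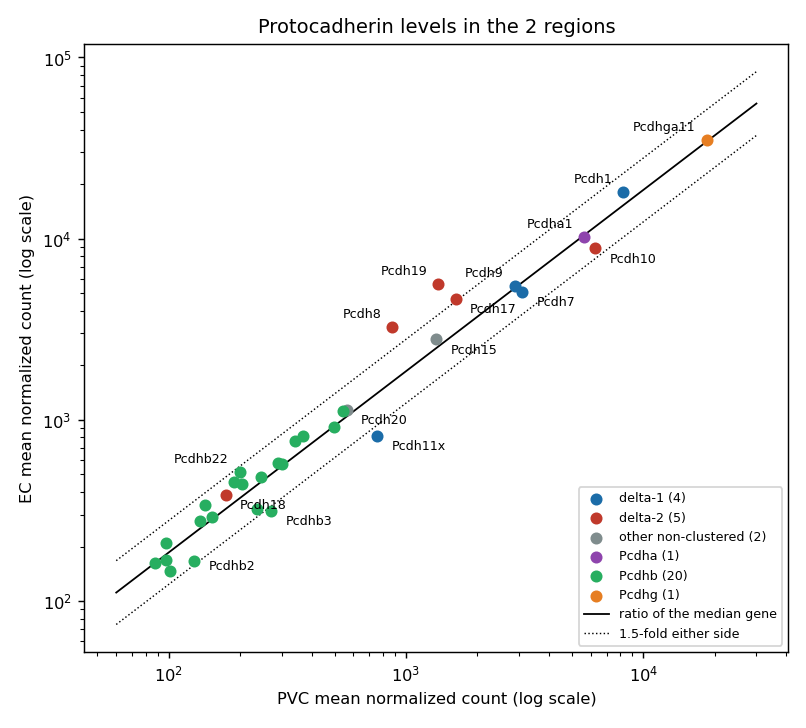
Mean normalized count of each of the 33 members in the PVC (x axis, log scale) and the EC (y axis, log scale), coloured by group; the solid line is the ratio of the median gene and the dotted lines lie 1.5-fold to either side. *Pcdh19*, *Pcdh8* and *Pcdh17* lie above the upper dotted line, and *Pcdh11x* and *Pcdhb3* below the lower one.

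Of the 33 members, 3 were higher in the EC, or 9.09%, against a background of 6.78% of all genes. These were *Pcdh19*, *Pcdh8* and *Pcdh17*, all of the delta-2 group. In the PVC 2 members were higher, or 6.06%, against 5.38% of all genes. These were *Pcdh11x* of the delta-1 group and *Pcdhb3*. The members' shares lay near the background in both directions, and the median log2 ratio over all members was 0.10, with 22 of 33 above 0. The split of 3 and 2 depended on the scaling. With the median of the neuronal marker list set to 0, which raised every log2 ratio by 0.22, 5 members were higher in the EC (*Pcdhb18* and *Pcdhb22* were added) and 0 in the PVC, against 12.8% and 3.21% of all genes. Under that scaling *Pcdh7*, *Pcdha1*, *Pcdhb4*, *Pcdhb6* and *Pcdhb9* changed sign, and *Pcdhb4* and *Pcdhb9* also did so when the total or the upper quartile was used.

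The delta-2 genes spread most widely between the regions. *Pcdh19*, known for mutations that cause an epilepsy mostly of females and for its association with N-cadherin, had a mean of 5631 in the EC against 1369.9 in the PVC. On the scale of the median gene it was 2.21-fold higher in the EC (log2 1.15), the highest of all members. *Pcdh8*, an activity-induced protocadherin also called arcadlin, had 3273 in the EC and 876 in the PVC and was 2.01-fold higher in the EC (log2 1.01). *Pcdh17*, known for its part in presynaptic assembly in corticobasal circuits, had 4669.7 and 1619 and was 1.55-fold higher in the EC (log2 0.64), only just past the fold. *Pcdh18*, with 386 and 173, had a log2 ratio of 0.26. *Pcdh10*, which recruits regulators of actin through its cytoplasmic tail, lay on the other side, with 8841 in the EC and 6285 in the PVC and a log2 ratio of -0.40, or 1.32-fold toward the PVC. The median of the 5 genes was 0.64, and the standard deviation over these genes was 0.62, against 0.46 over all genes. With only 5 genes, this median is the value of *Pcdh17* itself.

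The delta-1 genes centred on the median gene, with a median log2 ratio of -0.07, which became 0.15 when neuronal markers set the scale. *Pcdh11x*, an X-linked protocadherin, had a mean of 817 in the EC against 757 in the PVC and was 1.72-fold higher in the PVC (log2 -0.78), the lowest ratio of all members. *Pcdh7*, with 5092 and 3088, had a log2 ratio of -0.17. *Pcdh9*, with 5450.1 and 2872, lay at 0.03, and *Pcdh1* lay at 0.25. Of the other non-clustered members, *Pcdh15*, the protocadherin of hair cell tip links, had 2782 in the EC and 1338 in the PVC (log2 0.16), and *Pcdh20* had 1134 and 562 (log2 0.12). Both stayed close to the median gene. By annotated NCBIM37 positions, *Pcdh11x* (chrX:117403868-118024228) and *Pcdh19* (chrX:130117402-130223532), which held the lowest and the highest ratio, lie on the same chromosome. *Pcdh8*, *Pcdh17*, *Pcdh20* and *Pcdh9* lie on chromosome 14, with log2 ratios from 0.03 to 1.01.

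**Figure D2:**
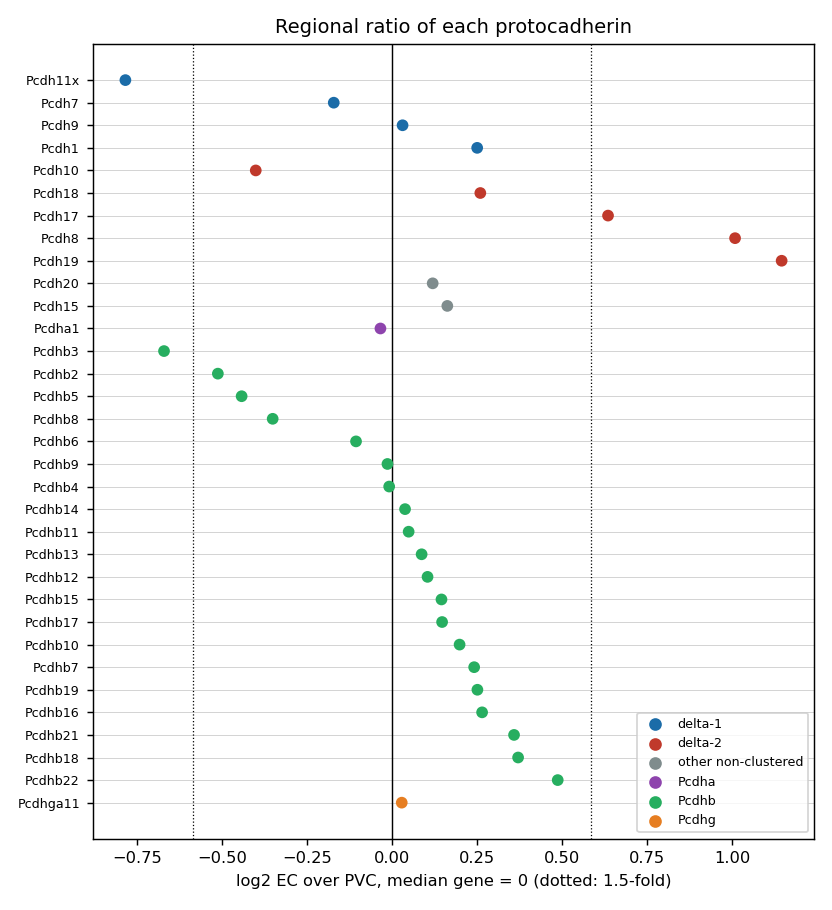
Log2 ratio of the EC over the PVC mean for each member, with the median gene at 0 and dotted lines at 1.5-fold, ordered within group. The 5 delta-2 genes run from -0.40 to 1.15 and the 22 clustered members from -0.67 to 0.49; *Pcdh7*, *Pcdha1*, *Pcdhb4*, *Pcdhb6* and *Pcdhb9* move to the other side of 0 when neuronal markers set the scale.

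Clustered members varied less between the regions than non-clustered members did. Their log2 ratios ran from -0.67 to 0.49, with a standard deviation over genes of 0.29, and those of non-clustered members ran from -0.78 to 1.15, with 0.57. The narrower range of the clustered members depends on the minimum. It left out *Pcdhb1*, at 1.63 on the same scale and above every member, and the non-clustered *Pcdh12*, at 0.85. The medians were 0.07 and 0.16 and differed by -0.09, clustered minus non-clustered. Both were positive under all the scalings tried. Of the 22 clustered members 14 had a ratio above 0, and so did 8 of the 11 non-clustered ones. *Pcdhga11*, at 0.03, and *Pcdha1*, at -0.03, sat beside the median gene, and since each may sum several isoforms, opposite changes of single isoforms would not show in them.

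Within the *Pcdhb* cluster the ratio followed the order of the genes. This pattern was noticed after the values were seen and is given as a description. The 20 members lie in the same orientation, on the plus strand of chr18:37454494-37681073 in NCBIM37, and the Spearman rho of their order with the log2 ratio was 0.854. Of the 10 genes nearest the 5′ end, 7 lay below 0, with a median of -0.06, but this count was 5 when the total or the upper quartile set the scale, and 4 with a minimum of 100, which left 7 of these genes. With neuronal markers it was also 4, and the median was 0.16. All of the 10 nearest the 3′ end lay above 0, as they did under each of those settings, with a median of 0.20 and a range of 0.04 to 0.49. The summed means were 3137 in the EC against 1867 in the PVC for the first 10, and 5902 and 2747 for the last 10.

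**Figure D3:**
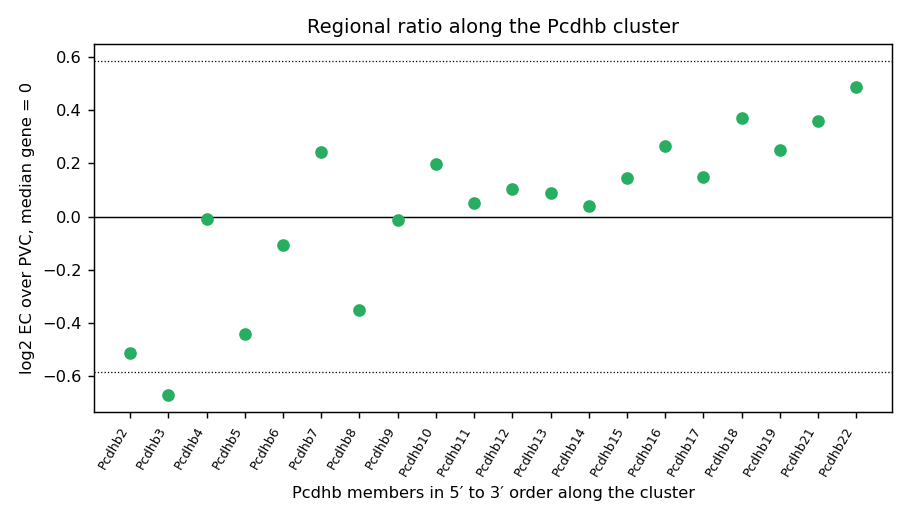
Log2 ratio of the EC over the PVC mean, with the median gene at 0, of the 20 *Pcdhb* members in their 5′ to 3′ order along the cluster; dotted lines mark 1.5-fold. The last 10 genes all lie above 0, and *Pcdhb3*, the second gene, is the only one past a dotted line.

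The 5′ end held the genes that leaned to the PVC. *Pcdhb2*, the first member in order, had a mean of 166 in the EC against 128 in the PVC (log2 -0.51). *Pcdhb3*, the second, had 314 and 269 and was 1.59-fold higher in the PVC (log2 -0.67). *Pcdhb5*, the fourth, had 323 and 236 (log2 -0.44), and *Pcdhb8*, the seventh, had 147 and 101 (log2 -0.35). *Pcdhb7*, the sixth, lay among them at 0.24, so neighbours did not always share a sign. At the 3′ end *Pcdhb22* had 518 and 199 (log2 0.49), *Pcdhb21* had 338 and 142 (log2 0.36) and *Pcdhb18* had 452 and 188 (log2 0.37). Of these only *Pcdhb3* falls under the naming rule, and the others were picked for their place and value. *Pcdhb1* stands against the order. It lies 5′ of the others, and on the same scale its log2 ratio was 1.63 from means of 19.9 and 3.47. With it included rho was 0.601, and without *Pcdhb2*, *Pcdhb3* and *Pcdhb5* among the members it was 0.775. When the median ratio of genes of like length and level was removed, rho was 0.851.

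The genes of the cluster also differed in exon length, from 2350 bases in *Pcdhb8* to 7131 in *Pcdhb19*, and in GC content, from 41.2% in *Pcdhb19* to 52.7% in *Pcdhb8*. Across the 20 genes rho of the log2 ratio was 0.465 with the EC level, 0.338 with exon length and -0.26 with GC content. The EC level is the numerator of the ratio, which by itself tends to make that rho positive. Order itself had a rho of 0.602 with the EC level, so the 3′ genes were also the more abundant ones. Reads that match several *Pcdhb* genes cannot be assigned to a copy. Stretches of 149 bases, the read length, shared exactly with a transcript of another protein-coding gene made up 0.26% of *Pcdhb10* and 0.215% of *Pcdhb6*, and none were found in the other 18, so reads shared in full covered almost none of these genes. Near-matches were not examined.

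Compared per 1000 bases of exon, the *Pcdhb* members were low. *Pcdha1* and *Pcdhga11* have no length and do not enter. The 20 *Pcdhb* members had a median level of 95.5 mean normalized counts per 1000 bases in the EC and 54.6 in the PVC, and non-clustered members had 547 and 170.2. The ratio of these medians was 0.174 in the EC against 0.321 in the PVC. With 11 genes, the non-clustered median is the value of *Pcdh19* in the EC and of *Pcdh17* in the PVC. The ratios of the regions thus rest on different genes, and their distance is not a measure of a regional change in the *Pcdhb* members. Over the 14222 genes with a length the medians were 347 in the EC against 188 in the PVC. None of the 20 *Pcdhb* members reached the median of all genes in either region (0 of 20), whereas 7 of 11 non-clustered members did so in the EC and 5 in the PVC.

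**Figure D4:**
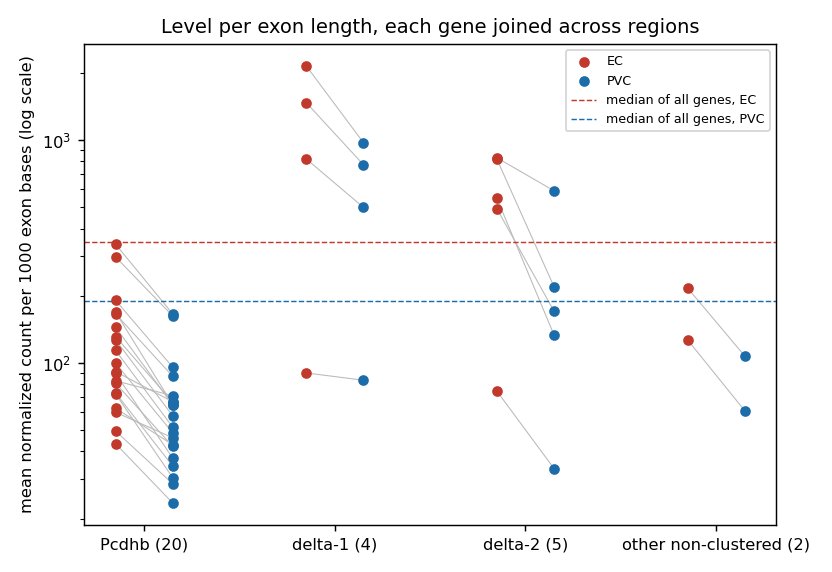
Mean normalized count per 1000 exon bases (log scale) of the 31 members with an annotated length, by group, with EC in red and PVC in blue, the same gene joined by a line; dashed lines are the medians of all genes. All 20 *Pcdhb* members lie below the dashed line of their region, and the delta-2 lines of *Pcdh19* and *Pcdh8* fall most steeply. The tables were normalized separately, so the general drop from red to blue is not a regional difference.

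*Pcdh1* had the highest level per 1000 bases, with 2145 in the EC and 971 in the PVC, and stood at the 91.4th and the 89.2th percentile of all genes. *Pcdh9* followed with 1467 and 773. *Pcdh10* had 831 and 590.4, *Pcdh7* had 821 and 498, and *Pcdh8* had 819 and 219. Per 1000 exon bases *Pcdh10* and *Pcdh8* were thus at like levels in the EC, and in the PVC *Pcdh10* stood well above *Pcdh8*. The likeness depends on annotated untranslated sequence. *Pcdh10* has 10645 exon bases, of which 3417 are coding, and *Pcdh8* has 3995, of which 3210 are coding. Their mean normalized counts in the EC were 8841 and 3273. *Pcdh8* moved from the 74.6th percentile in the EC to the 54.4th in the PVC, *Pcdh19* (547 and 133 per 1000 bases) from the 63.7th to the 41.1th and *Pcdh17* (491 and 170.2) from the 60.4th to the 47.2th. *Pcdh20* had 217 and 107, *Pcdh15* had 127 and 61.0, *Pcdh11x* had 90.0 and 83.5, and *Pcdh18* had 74.6 and 33.6. The lowest 4 in the EC fell inside the *Pcdhb* range, and the order of all 31 genes was otherwise much alike in both regions, with a rho of 0.93.

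Among the *Pcdhb* members, *Pcdhb17* was highest, with a level per 1000 bases of 340.4 in the EC against 165 in the PVC. *Pcdhb9* had 298 and 162, and *Pcdhb12* had 191 and 95.5. The lowest were *Pcdhb4*, with 43.4 and 23.5, and *Pcdhb6*, with 49.5 and 28.7. The levels depend on the exon lengths of the annotation. *Pcdh9* is annotated with 3714 exon bases, of which 3711 are coding, and *Pcdh10* with 10645, of which 3417 are coding, so the distance between them depends on how much untranslated sequence is annotated. Counted over coding bases, the ratio of the *Pcdhb* to the non-clustered median was 0.121 in the EC against 0.207 in the PVC.

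Of the genes that act on protocadherins, or with them, none in 3 lists passed 1.5-fold on the scale of the median gene, against 6.78% of all genes toward the EC and 5.38% toward the PVC. The list of regulators of the clusters held 12 listed genes, with a median log2 ratio of -0.07. It covers CTCF, the cohesin complex that joins promoters to distant enhancers, and silencers of the clusters such as *Smchd1* and *Setdb1*. Its ends were *Zfp143*, at -0.20 with means of 516 and 319.9, and *Dnmt3b*, a DNA methyltransferase that marks promoters of the clusters, at 0.20 with only 51.0 and 23.8. *Ctcf* itself had 3286 in the EC and 1969.6 in the PVC (log2 -0.15). Past 1.5-fold there were 0 of 12 in either direction.

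The 9 listed intracellular partners include the kinases *Ptk2* and *Ptk2b*, which bind the constant tails of clustered protocadherins. The others are members of the WAVE complex, which remodels actin, and *Rac1*. The median log2 ratio of all 9 was 0.02, with 0 of 9 past the fold. The ends were *Ptk2*, with 6206 in the EC and 4676 in the PVC (log2 -0.48), and *Wasf1*, with 13806 and 6560.1 (log2 0.18). The 7 genes of shedding and intramembrane cleavage, which are *Adam10* and the subunits of gamma-secretase, had a median of 0.00 and also 0 past the fold. They ran from *Aph1a*, with 2163 and 1317 (log2 -0.18), to *Aph1b*, with 2011 and 773 (log2 0.49). Under the scaling by neuronal markers every log2 ratio in this and the following lists rises by 0.22, so that values between -0.22 and 0 change sign, the median of the regulators among them (0.16), and *Aph1b* passes 1.5-fold toward the EC, against 12.8% of all genes.

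**Figure D5:**
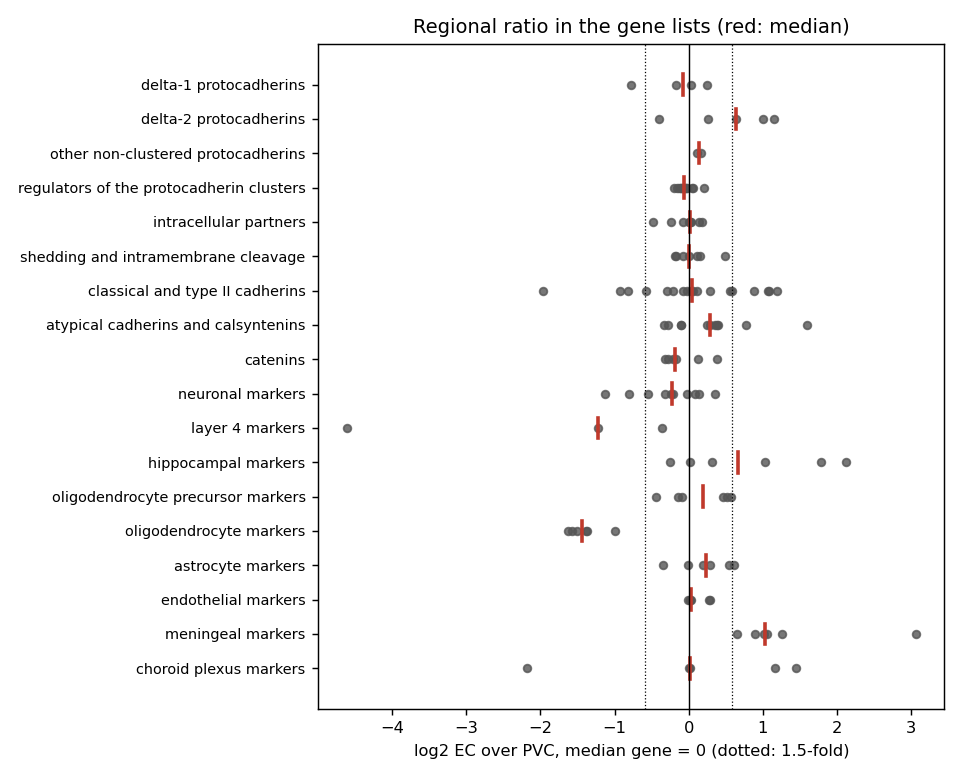
Log2 ratio of the EC over the PVC mean, with the median gene at 0, for each gene of each list (grey points) and the median of the list (red bar); dotted lines mark 1.5-fold. The regulators, partners and cleavage genes lie inside the dotted lines, the 6 oligodendrocyte markers lie from -1.63 to -0.99 and the 6 meningeal markers from 0.65 to 3.07.

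Markers of other cells and tissues moved between the regions as well, and in bulk tissue fewer cells of a type and less RNA per cell cannot be told apart. Of all genes, 6.78% were past 1.5-fold toward the EC and 5.38% toward the PVC. All 6 oligodendrocyte markers, from *Mobp* (log2 -1.63) to *Cnp* (-0.99), were past the fold toward the PVC and together made up 918 per 1000000 in the EC and 2331 in the PVC. All 6 meningeal markers, from *Lum* (0.65) to *Dcn* (3.07), were past it toward the EC, with 256 and 93.1 per 1000000. Of 6 hippocampal markers at the minimum, *Fibcd1* (2.13), *C1ql2* (1.79) and *Wfs1* (1.03) were past it toward the EC and *Prox1* lay lowest at -0.25, with 476 per 1000000 in the EC and 262 in the PVC for the list. Of the 3 layer 4 markers, *Rspo1* (-4.61) and *Rorb* (-1.22) were past it toward the PVC and *Scnn1a* lay at -0.36, with 36.3 and 89.7 per 1000000. The median log2 ratios of these lists were -1.44, 1.04, 0.67 and -1.22 in that order, and their part in the regional ratios of the protocadherins was not tested.

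Other marker lists had medians nearer to 0, and the same shares of all genes apply to them. The 10 neuronal markers had a median of -0.22 and 8893 and 10355 per 1000000. Of them *Nefm* (-1.13) and *Nefl* (-0.81) were past the fold toward the PVC, and *Stmn2* was highest at 0.35. The medians were 0.24 for 6 astrocyte markers, from *Aldh1l1* (-0.35) to *Gfap* (0.62, the only one past the fold), and 0.19 for 6 oligodendrocyte precursor markers, from *Sox10* (-0.44) to *Cspg4* (0.58, inside the fold). With the total or the upper quartile as scaling *Cspg4* passed the fold toward the EC, against 7.17% and 7.1% of all genes. The median was 0.03 for 6 endothelial markers, from *Pecam1* (-0.01) to *Cdh5* (0.29). The 5 choroid plexus markers at the minimum had a median of 0.02 and spread from *Ttr* (-2.18) to *Kcnj13* (1.45), with *Sostdc1* at 1.16, at 12.5 and 20.6 per 1000000 for the list. No marker was listed at 0 in either region, and neuronal, astrocyte and oligodendrocyte markers were abundant in both.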

How the data were processed

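RNA-sequencing was performed on 58 libraries, 29 from the EC and 29 from the PVC, whose region and genotype were read from the labels. According to the study's methods and the submitters' processing notes, single-end reads of 149 bases from poly(A)+ RNA were aligned by the authors to mm9 with TopHat2 2.0.6 and Bowtie2 2.0.2.0, counted per gene with HTSeq on a modified NCBIM37 annotation, and normalized with DESeq2 1.10.1 within each region. The authors deposited 1 table per region, and the value used is the mean normalized count, a signal averaged over all libraries of the region after division by size factors. The other 5 numeric columns of each table hold the authors' comparison of genotypes (fold change, its standard error, statistic and *p*-values before and after adjustment). They were not used, so no genotype difference is described. No depth per library was analysed, and no interval is given.

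Python 3.11.15 with pandas 2.3.3, numpy 2.4.6 and scipy 1.17.1 gave the regional ratios, over genes with a mean of at least 10 in both regions. Plots were drawn with matplotlib 3.10.9. The ratio of the median gene was set to 1 and ratios past 1.5-fold were counted. Levels were divided by exon bases not shared with another protein-coding gene, from the GENCODE annotation of NCBIM37, which gave a length to 90.9% of those genes. The computation was tested on simulated data. Promoters came from RefSeq (GRCm38.p6). No protein sequence was used.

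The members and the 20 gene lists were chosen with earlier results of these data known. The microglial list is not reported here. Named were all non-clustered members, the 3 highest and 2 lowest *Pcdhb* members per 1000 bases in the EC, all members past 1.5-fold, and of each list the ends and the genes past 1.5-fold. The alternatives were other scalings, minimums, folds and lengths, and removal of the trend on length and level.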

Additional observations from a re-analysis of the deposited data

How the results depend on the processing

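None of the counts, medians, shares and level ratios over the members reversed under the alternatives, although single members did, as given above for *Pcdh7*, *Pcdha1*, *Pcdhb4*, *Pcdhb6* and *Pcdhb9*, and the delta-1 median did with neuronal markers as scaling. Under the alternatives 27 values stayed the same (counts within 1.5 times, log2 values to 2 decimals, other values to 3 digits) and 31 moved, 3 of them on the order within the *Pcdhb* cluster. Some of the 27 could not have changed. Another scaling shifts every log2 ratio alike, so the difference of the medians was fixed. A minimum of 50 kept the same members, which fixed that difference, the shares and the level ratios. No member shares exon bases with another gene, so counting all exon bases repeated the level ratios. With the tables' totals as scaling the median log2 ratio was 0.093 in clustered and 0.19 in non-clustered members, with upper quartiles 0.089 and 0.18, and with neuronal markers 0.29 and 0.39, with 5 members higher in the EC but 0 in the PVC. With a minimum of 50 the medians were 0.081 and 0.18. With a minimum of 100, which left 30 members, they were 0.10 and 0.18, their difference was -0.076, the clustered share was 48.9% in the EC against 51.2% in the PVC, and the *Pcdhb* to non-clustered ratio of level per 1000 bases was 0.208 and 0.38. With a minimum of 1, which brought in *Pcdh12* and *Pcdhb1*, 5 members were higher in the EC, against 9.69% of all genes, the non-clustered median was 0.19, the difference was -0.12 and the ratios were 0.176 and 0.339. A fold of 1.2 gave 7 members higher in the EC and 6 in the PVC, against 17.5% and 13.9% of all genes, and a fold of 2 gave 2, *Pcdh19* and *Pcdh8*, and 0, against 2.66% and 2.12%. Removal of the trend on length and level, which left out the 2 members with no length, moved the non-clustered median to 0.15. Coding bases as length gave ratios of 0.121 and 0.207. The clustered share per length gave no value, because *Pcdha1* and *Pcdhga11* have no length. Checks on the order within the *Pcdhb* cluster were chosen after seeing the data. No replicate could be left out, and the spread between mice and the depth per library could not enter. No paired analysis was possible because the tables hold only means over all mice of a region.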

Other observations

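Other cadherins also differed between the regions, and no test was made against the protocadherins. Of 18 classical and type II cadherins at the minimum, with a median log2 ratio of 0.04, 4 were past 1.5-fold toward the EC, against 6.78% of all genes, and 3 toward the PVC, against 5.38%. *Cdh1*, the epithelial cadherin, had means of 377 in the EC against 88.5 in the PVC and was 2.29-fold higher in the EC. *Cdh9* had 1148 and 292 (1.08), *Cdh4*, or R-cadherin, had 2095 and 537 (1.07), and *Cdh13*, or T-cadherin, which lacks a cytoplasmic tail, had 6088 and 1773 (0.89). Toward the PVC, *Cdh6* had 205 in the EC and 432 in the PVC and was 3.92-fold higher there (log2 -1.97), while *Cdh12* had 749.8 and 768 (-0.93) and *Cdh7* had 890.0 and 845 (-0.82). *Cdh2*, or N-cadherin, lay just inside the fold at 0.58, with 9087 and 3266. With the total or the upper quartile as scaling *Cdh2* passed it. That made 5 of these cadherins toward the EC, against 7.17% and 7.1% of all genes.

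The 11 atypical cadherins and calsyntenins had a median of 0.29. Of them 2 were past the fold toward the EC, against 6.78% of all genes, and 0 toward the PVC, against 5.38%. *Fat2*, known from cerebellar granule cells, had 109 in the EC and 19.4 in the PVC (log2 1.60), and *Fat4*, which signals in planar polarity, had 1783 and 561 (0.78). *Clstn1*, a calsyntenin of vesicle transport, had the lowest ratio of the list at -0.33. The 6 catenins, which link classical cadherins but not protocadherins to actin, had a median of -0.19, from *Ctnnd1* (-0.32) to *Ctnnb1* (0.38). Of these genes 0 were past the fold in either direction, against the same shares of all genes. No test was made of these values, and scaling by neuronal markers raises each by 0.22. It turned the catenin median positive, at 0.036, with *Ctnnb1* past the fold, and it gave 6 classical and type II and 4 atypical cadherins past the fold toward the EC, against 12.8% of all genes.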
